A study of Drosophila melanogaster with 12 samples.

Results

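The wing pouch of the Drosophila larval wing disc is patterned by a small set of transcription factors, and 8 of them were followed here: vestigial (vg), nubbin (nub), POU domain protein 2 (pdm2), rotund (rn), defective proventriculus (dve), apterous (ap), Distal-less (Dll) and nab. They were chosen by name as regulators of the pouch, out of 17753 genes in the count table, with earlier results of these data known. The question was whether cells of the neighbouring hinge carried more of these transcripts after irradiation. Larvae of the genotype w1118/+ or Y; 30A-GAL4>UAS-G-trace/+ were exposed to X-rays or mock-irradiated. G-trace is a double reporter in which RFP shows current GAL4 activity and GFP shows past activity, and 30A-GAL4 is a driver inserted in an intron of ds that is active in the hinge. Dissociated discs were sorted into RFP+GFP+ cells (POS, the hinge) and RFP-GFP- cells (NEG, the rest of the disc with the pouch and notum). RNA was sequenced without irradiation (-IR, collected 24 h after the mock treatment) and at 24 h and 48 h after irradiation (IR+24h and IR+48h). Each of the 6 groups had 2 libraries, and the discs of each library came from several crosses, dissections and sorting runs.

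Several features of the design bound what can be read from it. Every group carried the driver and both reporters. No unirradiated group was collected at 48 h, and the IR+48h larvae had been irradiated at more than a single age, so time and irradiation cannot be told apart there. Cells that had lost RFP but kept GFP, the cells in which 30A activity had ended, were in neither pool. In sorted bulk samples, fewer cells expressing a gene and less RNA per expressing cell cannot be told apart.

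As background, the wing disc is divided into a pouch that forms the blade, a hinge that joins it to the body, and a notum that forms the back. Vg, with the DNA-binding protein Scalloped, is the selector of wing identity, and it acts downstream of Notch and Wingless signalling at the dorsoventral boundary. Nub and Pdm2 are paralogous POU-domain proteins, Rn is a zinc-finger protein with Nab as a cofactor, and Dve, Ap and Dll are homeodomain proteins with proximodistal or dorsoventral roles. Several of these domains, including those of nub and rn, reach past the pouch into the distal hinge, and ap marks the dorsal compartment across pouch, hinge and part of the notum.

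Total counts ran from 4211088 to 19940040 per library with a median of 14939250, and the smallest total was that of NEG -IR replicate 1. All 8 genes passed the filter on low counts, with 206 to 7145 counts in a library, and 10617 genes were tested. The sort could be checked on markers. In POS over NEG cells without irradiation, the log2 fold changes of 8 of 9 hinge genes lay above 0. Of these, 3 had an adjusted p under 0.05 and were higher, against 0.914% of all genes. Of 8 notum genes 4 lay above 0 and 4 below, with 1 passing as lower, against 1.76% of all genes. zfh2, a hinge determinant, was 9.85-fold higher in POS cells. Sox15, a hinge transcription factor, was 12.6-fold higher (edgeR quasi-likelihood test, adjusted p = 8.86e-05 and 2.21e-04). The paper had reported both as higher in POS cells from these same libraries. NEG cells also held other cell types. The summed level of 5 muscle precursor genes was 553 to 1535 CPM (counts of a gene scaled to a common library size) in NEG -IR libraries and 63.3 to 111 CPM in POS -IR libraries, and that of 6 hemocyte genes was 62.9 to 143 CPM against 9.62 to 14.8 CPM.

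Without irradiation, 3 of the 8 pouch factors were lower in POS than in NEG cells, and none was called higher. The called genes were vg, dve and nab, each 2.27-fold to 2.50-fold lower in POS cells. Across all genes tested, 2.67% were called in either direction, 97 genes (0.914%) as higher and 187 (1.76%) as lower. The paper had reported vg and dve as higher in NEG cells from these same libraries, so this count is not independent of the choice of genes. With scaling by library size alone the split was 153 higher and 133 lower and the median of all genes moved to 0.12, and 2 of the 8 factors were called. The median log2 fold change of the 8 was -0.71, against 0.01 for all genes tested. Of the 8 values, 7 lay below 0, as did 48.6% of all genes, and ap was the exception. In 4 of the 8 (vg, rn, dve and nab) both POS libraries lay below both NEG libraries, an ordering seen in 17.1% of all genes. With RLE size factors, or with a stricter filter of at least 1 CPM in all 12 libraries, vg alone was called. With only the 4 -IR libraries in the fit 0 were called (adjusted p = 0.471 for vg). Over all genes these fits called 234 of 10617, 196 of 7517 and 20 of 9521. A call here means an adjusted p under 0.05 from edgeR after Benjamini-Hochberg adjustment over all genes tested. Levels are CPM with TMM scaling, and SE and the 95% interval of a log2 fold change come from the same fit.

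**Figure D1:**
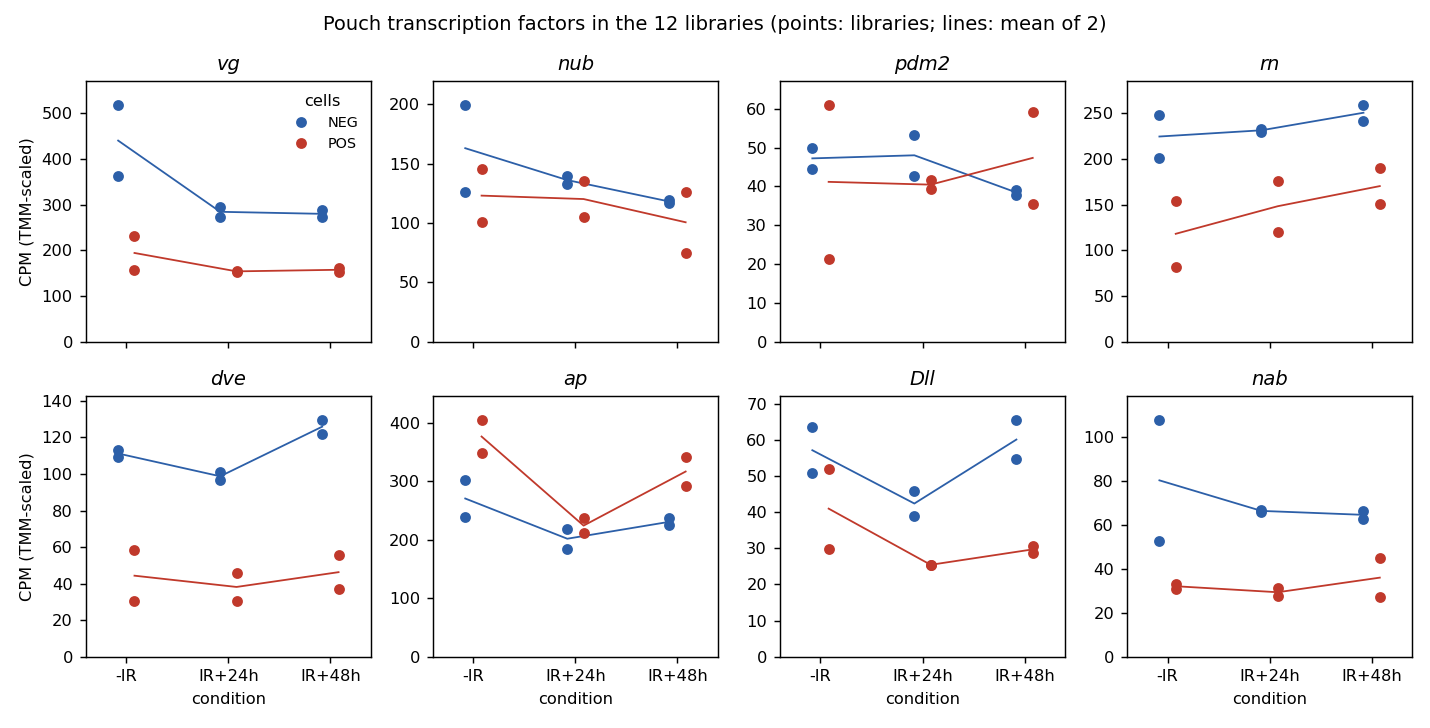
CPM (linear axis from 0) of each of the 8 pouch factors in all 12 libraries, with NEG cells in blue and POS cells in red at -IR, IR+24h and IR+48h. Points are libraries and lines join the means of 2. The POS points of vg, rn, dve and nab lie below the NEG points in all 3 conditions, and those of ap lie above them at -IR and IR+48h.

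vg, the wing selector, had the highest level of the set in NEG cells. Its gene lies on chromosome 2R at 12884201-12899385, plus strand (BDGP6.54, as for all positions here). Without irradiation it stood at 362 and 519 CPM in NEG libraries and at 157 and 232 CPM in POS libraries. The groups did not overlap, although the NEG libraries lay far apart. The log2 fold change was -1.18 (SE 0.20, adjusted p = 0.0126, edgeR), which is 2.27-fold lower in POS cells. Without NEG -IR replicate 2, the higher library, it was -0.86 with an adjusted p of 0.0742.

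After irradiation vg stood at 153 and 155 CPM in POS IR+24h libraries and at 153 and 162 CPM in POS IR+48h libraries. Of these 4 values, 3 lay below both POS -IR libraries and the other lay between them. No gain was measured: the log2 fold change against POS -IR was -0.34 at 24 h (95% interval -0.78 to 0.11) and -0.30 at 48 h (-0.75 to 0.14), neither of them called. The upper ends of these intervals are 1.08-fold and 1.10-fold. In NEG cells vg stood at 296 and 274 CPM at 24 h and at 272 and 288 CPM at 48 h, below both NEG -IR libraries. In NEG cells the log2 fold change was -0.63 at 24 h (adjusted p = 0.174, edgeR) and -0.66 at 48 h (adjusted p = 0.319, edgeR), which did not pass the test.

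nub and pdm2, the POU-domain pair, lie 29.0 kb apart on chromosome 2L on the plus strand, nub at 12587625-12628135 and pdm2 at 12657165-12686306. nub stood at 199.6 and 126 CPM in NEG -IR libraries and at 101 and 145 CPM in POS -IR libraries. pdm2 stood at 49.9 and 44.6 CPM in NEG -IR libraries and at 21.3 and 61.0 CPM in POS -IR libraries. For both genes the POS and NEG libraries overlapped, and no difference passed the test, with log2 fold changes of -0.40 for nub (95% interval -1.01 to 0.21) and -0.19 for pdm2 (-1.04 to 0.66). The 2 POS -IR libraries of pdm2 differed 2.86-fold from each other, the widest gap between replicates in the set.

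At IR+24h nub stood at 135 and 105 CPM in POS libraries and at 133 and 139.5 CPM in NEG libraries. At IR+48h it stood at 74.9 and 126 CPM in POS libraries and at 116 and 119.8 CPM in NEG libraries. pdm2 in POS cells was at 41.7 and 39.2 CPM at 24 h and at 35.5 and 59.2 CPM at 48 h, all within the range of the POS -IR libraries. On the log2 scale the difference in POS cells at 48 h was -0.29 for nub (95% interval -0.90 to 0.31) and 0.20 for pdm2 (-0.64 to 1.03), so for pdm2 a rise of up to 2.05-fold lies within the interval.

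rn encodes a zinc-finger protein of the distal wing and leg, on chromosome 3R at 7272617-7309629, minus strand, with 4 annotated transcripts that the counts per gene do not separate. It stood at 201 and 248 CPM in NEG -IR libraries and at 81.7 and 154 CPM in POS -IR libraries. The groups did not overlap, and the log2 fold change was -0.93 (SE 0.27, adjusted p = 0.101, edgeR), which missed the test. With a library left out in turn, it ran from -1.46 (without POS -IR replicate 2, the higher of that group) to -0.54. With no filter on low counts it was -0.86 with an adjusted p of 0.00103 in edgeR. Over the alternatives with no library left out, the adjusted p (edgeR, DESeq2 or limma voom) reached 0.769.

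rn was the pouch factor with the largest positive value in POS cells after irradiation, at 176 and 120.4 CPM at 24 h and at 150.4 and 190.1 CPM at 48 h. These libraries overlapped POS -IR replicate 2. The log2 fold change against POS -IR was 0.33 at 24 h (95% interval -0.26 to 0.92, adjusted p = 0.599, edgeR) and 0.53 at 48 h (-0.06 to 1.12, adjusted p = 0.411, edgeR), and neither was called. NEG cells held rn between 230 and 259 CPM after irradiation, above every POS library. The summed muscle precursor level of POS cells also stood higher after irradiation, at 145 to 152 CPM at 24 h and 218 to 232 CPM at 48 h, and its part in the rn values was not tested.

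nab, the cofactor of Rn, lies on chromosome 3L at 4153618-4160932, minus strand, and had the shortest exon length of the set at 2470 bases. It stood at 108 and 52.7 CPM in NEG -IR libraries and at 33.2 and 30.9 CPM in POS -IR libraries. The groups did not overlap, but the NEG libraries differed 2.04-fold. The fitted log2 fold change was -1.31 (SE 0.31, adjusted p = 0.0479, edgeR), close to the threshold. Without NEG -IR replicate 1, the shallowest library and the higher of the group, the log2 fold change was -0.71 with an adjusted p of 0.180. Leaving out either POS -IR library also ended the call, with log2 fold changes of -1.35 (adjusted p = 0.0636) without replicate 1 and -1.25 (adjusted p = 0.154) without replicate 2. The call was also lost with limma voom (-1.06, adjusted p = 0.0984) and with library size alone (-1.23, adjusted p = 0.0739).

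After irradiation nab stayed between 27.1 and 44.8 CPM in the 4 POS libraries and between 62.8 and 66.8 CPM in the 4 NEG libraries. Within POS cells the log2 fold change was -0.13 at 24 h (95% interval -0.80 to 0.54) and 0.16 at 48 h (-0.50 to 0.83), neither of them called.

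dve, a homeodomain gene of the pouch on chromosome 2R at 22243963-22286469, plus strand, had the lowest fitted POS over NEG value of the set at all 3 times, with nab next to it at -IR and 24 h. Without irradiation it stood at 109 and 113 CPM in NEG libraries and at 30.3 and 58.4 CPM in POS libraries. The log2 fold change was -1.32 (SE 0.30, adjusted p = 0.0393, edgeR), which is 2.50-fold lower in POS cells. The call was lost without NEG -IR replicate 1 (log2 fold change -1.34, adjusted p = 0.0523), without NEG -IR replicate 2 (-1.26, adjusted p = 0.102) and without POS -IR replicate 1 (-0.93, adjusted p = 0.0694).

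In POS cells dve stood at 45.7 and 30.7 CPM at IR+24h and at 36.9 and 55.6 CPM at IR+48h, all 4 values between the POS -IR libraries. NEG cells stood at 101 and 96.5 CPM at 24 h and at 130 and 122 CPM at 48 h. The POS libraries thus stayed below every NEG library. Its log2 fold change within POS cells was -0.22 at 24 h (95% interval -0.86 to 0.42) and 0.06 at 48 h (-0.58 to 0.70), and neither was called.

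Dll, a homeodomain gene that responds to Wingless in the distal wing, lies on chromosome 2R at 24814822-24835667, plus strand. It stood at 50.8 and 63.4 CPM in NEG -IR libraries and at 29.9 and 52.0 CPM in POS -IR libraries, which overlapped. In POS cells it was 25.5 and 25.4 CPM at IR+24h and 28.7 and 30.7 CPM at IR+48h, while NEG cells stood at 39.0 and 45.8 CPM and then at 54.6 and 65.5 CPM. The log2 fold change in POS cells was -0.69 at 24 h (SE 0.25, adjusted p = 0.158, edgeR) and -0.47 at 48 h (adjusted p = 0.437, edgeR), so neither passed the test. With a library left out in turn, the value at 24 h ran from -1.03 (without POS -IR replicate 1) to -0.24.

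ap, the dorsal selector, encodes a LIM-homeodomain protein and lies on chromosome 2R at 5706202-5727525, minus strand. Of the 8 it was the gene whose level without irradiation was higher in POS than in NEG cells, at 302 and 239 CPM in NEG libraries and at 348 and 405 CPM in POS libraries, with no overlap. Its log2 fold change of 0.48 (95% interval 0.11 to 0.84) had an adjusted p of 0.166 in edgeR and was not called.

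ap was also the only pouch factor called in any comparison of irradiated with unirradiated cells, and it fell. POS cells held 237 and 212 CPM at IR+24h, both far below the POS -IR libraries. The log2 fold change was -0.75 (SE 0.17, 95% interval -1.11 to -0.38, adjusted p = 0.0245, edgeR). The call was lost without POS -IR replicate 2 (-0.64, adjusted p = 0.0872), without POS IR+24h replicate 1 (-0.82, adjusted p = 0.0987), without POS IR+24h replicate 2 (-0.67, adjusted p = 0.295), and when only the POS -IR and POS IR+24h libraries entered the fit (-0.78, adjusted p = 0.119). At IR+48h ap stood at 292 and 342 CPM in POS cells, above both IR+24h libraries and below both -IR libraries. The log2 fold change from 24 h to 48 h was 0.50 (unadjusted p = 0.0117, adjusted p = 0.685, edgeR) and was not called. In NEG cells ap was 185 and 219 CPM at 24 h and 225 and 237 CPM at 48 h, with log2 fold changes against -IR of -0.42 (adjusted p = 0.300, edgeR) and -0.23 (adjusted p = 0.669, edgeR).

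The gap between POS and NEG cells was then compared at the later times. In edgeR, 0 of the 8 genes were called at IR+24h and 0 at IR+48h, where 0.509% and 0.33% of all genes were called. At an unadjusted p under 0.05 there were 5 of 8 at each time, against 7.62% and 6.25% of all genes. At 24 h these were vg, rn, dve, Dll and nab, and at 48 h they were vg, dve, Dll and nab, which were lower in POS cells, and ap, which was higher. DESeq2 called 3 at each time (vg, dve and nab at 24 h, and vg, dve and Dll at 48 h). limma voom called 0 at 24 h and 1 at 48 h, dve. With only the 4 libraries compared in the fit, 4 were called at 24 h and 3 at 48 h. These settings also called more genes over all than the main fit, except limma voom at 24 h, which called fewer. DESeq2 called 179 and 130 of 10617 genes at 24 h and 48 h, where the main fit called 54 and 35. limma voom called 42 and 51, and the fits of 4 libraries called 501 of 9390 and 172 of 9660.

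The median log2 fold change of the 8 was -0.69 at 24 h and -0.69 at 48 h, against -0.02 and 0.01 for all genes tested. Both POS libraries lay below both NEG libraries for 6 of the 8 at 24 h (vg, pdm2, rn, dve, Dll and nab) and for 5 of the 8 at 48 h (vg, rn, dve, Dll and nab), orderings seen in 24.8% and 21% of all genes. dve had log2 fold changes of -1.37 (adjusted p = 0.090) and -1.44 (adjusted p = 0.0796) at the later times. vg had -0.88 (adjusted p = 0.116) and -0.83 (adjusted p = 0.200), and nab had -1.18 (adjusted p = 0.191) and -0.84 (adjusted p = 0.555), all from edgeR. Dll stood at -0.74 (adjusted p = 0.402) and -1.02 (adjusted p = 0.212), where its value before irradiation had been -0.48 (adjusted p = 0.371).

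**Figure D2:**
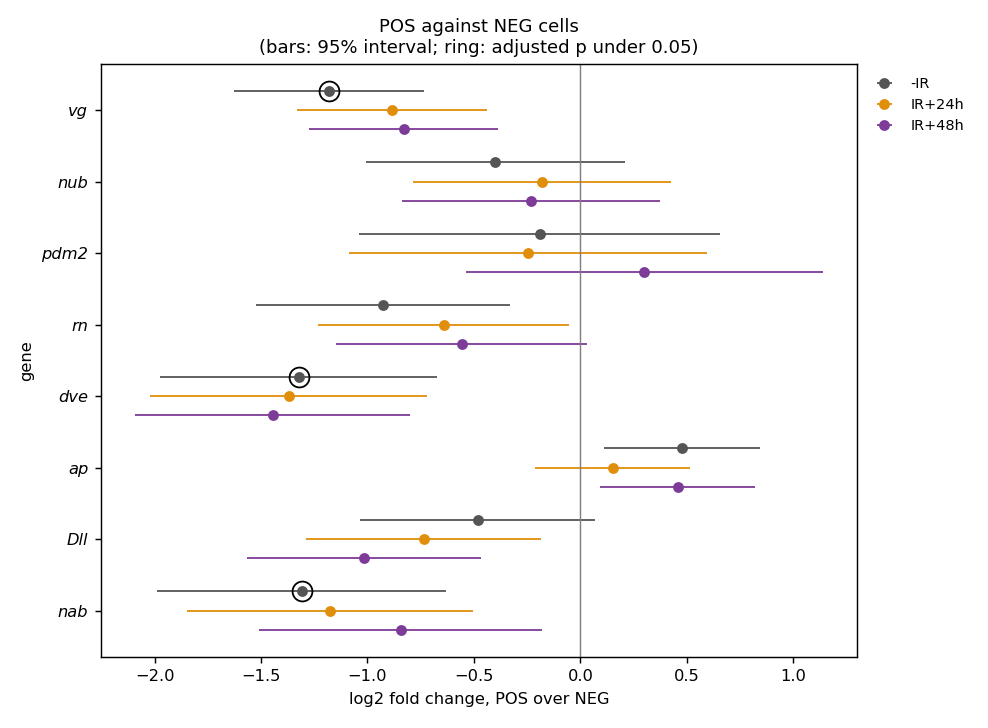
log2 fold change of POS over NEG cells (x axis) for each of the 8 pouch factors at -IR, IR+24h and IR+48h, with 95% intervals as bars and a ring around the values with an adjusted p under 0.05. The ringed values are vg, dve and nab at -IR, and the intervals of dve, vg and nab lie below 0 at all 3 times.

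Within POS cells, the comparison that asks directly about a gain of pouch factors, 1 of the 8 was called at IR+24h (ap, lower) and 0 at IR+48h. Across all genes 5.33% and 1.63% were called, and 1.19% were called lower at 24 h. No pouch factor was called higher at either time in edgeR, limma voom or DESeq2, where edgeR called 4.14% of all genes higher at 24 h and 1.27% at 48 h. At an unadjusted p under 0.05 there were 2 at 24 h (ap and Dll, both lower) and 0 at 48 h, against 18.3% and 14.5% of all genes. The median log2 fold change of the 8 in POS cells was -0.17 at 24 h and -0.10 at 48 h, against -0.04 and -0.05 for all genes tested. At 48 h, 4 of the 8 values lay above 0 (rn, pdm2, nab and dve) and 4 below, and 45.7% of all genes lay above 0. Rises above 1.10-fold for vg, 1.08-fold for ap, 1.06-fold for Dll and 1.24-fold for nub lay outside the 95% intervals at 48 h. The upper limits for the others were wider, at 1.62-fold for dve, 1.78-fold for nab, 2.05-fold for pdm2 and 2.17-fold for rn. From 24 h to 48 h 0 of the 8 were called in POS cells by edgeR, limma voom and DESeq2, and 0% of all genes were called in edgeR. ap alone had an unadjusted p under 0.05 in that comparison, as had 4.93% of all genes.

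In NEG cells, which hold the pouch itself, 0 of the 8 were called at IR+24h and 0 at IR+48h by edgeR, limma voom and DESeq2, where edgeR called 2.16% and 0.113% of all genes. At an unadjusted p under 0.05 there were 2 at 24 h (vg and ap, lower) and 1 at 48 h (vg, lower), against 13% and 10.5% of all genes. The median log2 fold change of the 8 was -0.26 at each time, against -0.01 and -0.02 for all genes. From 24 h to 48 h 0 were called by these tools, with 0% of all genes called in edgeR, and 0 had an unadjusted p under 0.05, against 6.08% of all genes.

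**Figure D3:**
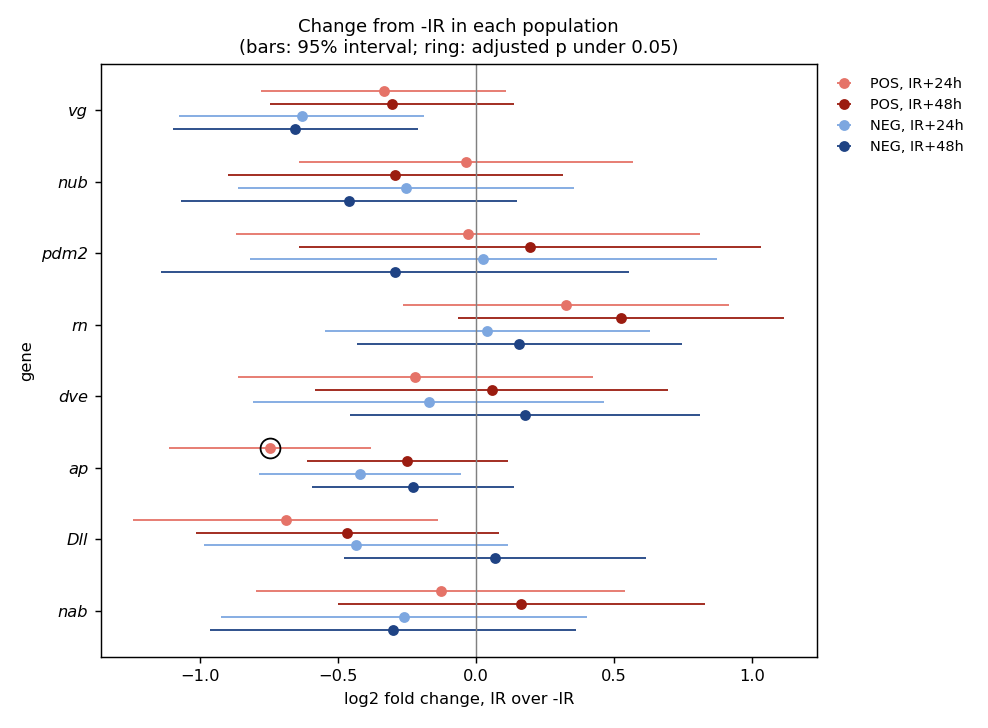
log2 fold change of irradiated over unirradiated cells (x axis) for each of the 8 pouch factors, in POS cells (reds) and NEG cells (blues) at IR+24h and IR+48h, with 95% intervals as bars and a ring around values with an adjusted p under 0.05. The only ringed value is ap in POS cells at 24 h (-0.75), and no interval lies wholly above 0.

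Whether the change in POS cells differed from that in NEG cells was tested as an interaction. In edgeR, limma voom and DESeq2 0 of the 8 genes were called at 24 h and 0 at 48 h, and 0 had an unadjusted p under 0.05 in edgeR, against 3.32% and 3.3% of all genes. Over all genes edgeR called 0% and 0.0188%. The 24 h differences ran from -0.33 (ap, 95% interval -0.84 to 0.19) to 0.30 (vg, -0.33 to 0.92) on the log2 scale. At 48 h they ran from -0.53 (Dll, -1.31 to 0.24) to 0.49 (pdm2, -0.70 to 1.68), with vg at 0.35 (-0.27 to 0.98), rn at 0.37 (-0.46 to 1.20) and nab at 0.46 (-0.47 to 1.40). These intervals are wide, and for vg a relative gain of POS over NEG of up to 1.97-fold lay within them. For vg the value above 0 came with a lower level in both populations, by 0.30 in POS and 0.66 in NEG cells at 48 h. The comparisons with -IR, the gaps between POS and NEG cells and these differences share libraries and are not independent of each other.

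In POS groups the replicates differed in the same direction for most of the 8 genes, and the share of all genes was not counted. In POS -IR cells 7 of the 8 genes were higher in replicate 2, with a median ratio of 1.61 between the libraries, and in POS IR+48h cells 8 of 8 were higher in replicate 2, with a median ratio of 1.39. In POS IR+24h cells 2 of 8 were higher in replicate 2, with a median ratio of 1.12. In NEG cells 4 of 8 were higher in replicate 2 at -IR, 5 at 24 h and 5 at 48 h. The median ratios there were 1.26 at -IR, 1.07 at 24 h and 1.06 at 48 h. The hinge genes of POS -IR cells moved the same way, with a summed level of 5076 CPM in replicate 1 and 7649 CPM in replicate 2, as did the muscle precursor list, with 63.3 and 111 CPM. In NEG -IR cells the muscle precursor sum was 553 CPM in replicate 1 and 1535 CPM in replicate 2, where vg was higher in replicate 2 and nab in replicate 1. The part of these differences in the results was not tested.

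The order of the 8 genes by level was compared per kilobase of exon, so that long and short genes can be set side by side. In NEG cells vg came first and ap next in all 3 conditions, and pdm2 came last. In POS cells ap came first and vg next in all 3 conditions. Without irradiation vg stood at 93.0 to 133 CPM per kb in NEG cells and at 40.4 to 59.5 in POS cells, and ap stood at 55.4 to 70.0 and at 80.6 to 93.9. The libraries of vg and ap did not overlap in any of the 6 groups. Lower in the order the neighbours often did overlap: in POS -IR cells the libraries of nub, rn, nab, Dll, dve and pdm2 each overlapped with those of the next gene, so that their order is not resolved. The low end in POS cells after irradiation was held by pdm2, dve and Dll, again with overlapping libraries.

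The other genes of the pathway gave a mixed picture. The 5 partners of these factors included sd, the DNA-binding partner of Vg, and sqz, a zinc-finger protein that binds Nab. The others were Chi and Ssdp, cofactors of Ap, and Bx, an inhibitor of Ap activity. Between POS and NEG cells 0 of 5 were called at any time in edgeR, limma voom or DESeq2. At an unadjusted p under 0.05 in edgeR there were 1 at 24 h and 0 at 48 h, against 7.62% and 6.25% of all genes. At -IR there were 2 of 5, and the share of all genes was not counted there. sd stood at 634 and 726 CPM in NEG -IR libraries and at 548 and 614 CPM in POS -IR libraries, a log2 fold change of -0.23. In POS cells sqz fell at 24 h, from 68.8 and 74.8 CPM to 39.8 and 40.4 CPM, with a log2 fold change of -0.84 (adjusted p = 0.0425, edgeR).

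Of 8 genes of the dorsoventral boundary, where Notch signalling induces vg, 1 was called without irradiation, against 2.67% of all genes. This was ct, which marks the boundary but is also expressed in muscle precursors, with a log2 fold change of -3.53 in POS over NEG cells (adjusted p = 0.0333, edgeR). Its NEG -IR libraries stood at 121 and 591 CPM, and the muscle precursor sums of the same libraries were 553 and 1535 CPM. The part of those cells in the ct value was not tested. The Notch ligand Dl fell in POS cells at 24 h, from 387 and 430 CPM to 220.2 and 231 CPM (log2 fold change -0.86, adjusted p = 0.0346, edgeR). The other 7 genes of this list, with N, Ser, fng and wg among them, were not called in POS cells at 24 h. At 48 h 0 of 8 were called, with 2 at an unadjusted p under 0.05, against 14.5% of all genes. limma voom called 1 and DESeq2 called 1 at 48 h, where they called 179 and 554 of 10617 genes.

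Of 8 genes of the Dpp and vein program, 1 was called between POS and NEG cells without irradiation, against 2.67% of all genes. bi, a T-box gene and target of Dpp, was higher in POS cells, at 552 and 808 CPM against 256 and 214 CPM (log2 fold change 1.54, adjusted p = 0.00449, edgeR). In edgeR 0 of the 8 were called in POS cells after irradiation, where 5.33% and 1.63% of all genes were called at 24 h and 48 h. At an unadjusted p under 0.05 there were 4 at 24 h and 3 at 48 h, against 18.3% and 14.5% of all genes. limma voom also called 0 at both times. DESeq2 called 2 lower at 24 h and 1 lower at 48 h, where it called 346 and 200 of 10617 genes lower. All 8 fitted values lay below 0 at 48 h, where 45.7% of all genes lay above 0.

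Of 5 further genes with pouch expression, 2 were called lower in POS cells without irradiation, against 1.76% of all genes. Cyp310a1, a cytochrome P450 gene of the pouch, stood at 109 and 34.2 CPM in NEG -IR libraries and at 19.7 and 13.4 CPM in POS -IR libraries (log2 fold change -2.10, adjusted p = 0.0315, edgeR). ana, which encodes a secreted glycoprotein, was at 20.8 and 35.2 CPM against 1.88 and 7.07 CPM (log2 fold change -2.64, adjusted p = 0.0492, edgeR). The paper had reported both genes as higher in NEG cells from these same libraries. The count is thus not independent of the choice of genes. Neither gene was called in POS cells after irradiation. In POS cells at 24 h 3 of the 5 values lay above 0, with a median of 0.07 against -0.04 for all genes tested. The only gene of this list called there was fj, which encodes a Golgi kinase of planar polarity. fj went from 66.1 and 87.3 CPM in POS -IR cells to 172 and 200.2 CPM at 24 h (log2 fold change 1.28, adjusted p = 0.00533, edgeR). It was also called in NEG cells at 24 h, from 128 and 113 CPM to 213 and 325 CPM (1.16, adjusted p = 0.0153, edgeR). At 48 h fj was at 114 and 99.95 CPM in POS cells and was not called.

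Among 9 genes of the hinge, 3 were called higher in POS cells without irradiation (zfh2, Sox15 and upd1, which encodes a JAK/STAT ligand). At 24 h 2 were called higher (zfh2 and Sox15), and at 48 h 3 (zfh2, Sox15 and upd1). Across all genes 2.67%, 0.509% and 0.33% were called in either direction at these times. In POS cells 1 of the 9 was called after irradiation, hth, a homeodomain gene of the proximal disc. hth fell at 24 h (log2 fold change -1.04, adjusted p = 0.0287, edgeR), where 1.19% of all genes were called lower. At 24 h 7 of the 9 values lay below 0, with a median of -0.56 against -0.04 for all genes tested. At an unadjusted p under 0.05 there were 5, against 18.3% of all genes. At 48 h 0 were called in edgeR, limma voom or DESeq2, with 2 at an unadjusted p under 0.05, against 14.5% of all genes. Among 8 notum genes, pnr was called lower in POS cells at -IR (-2.30). There 4 of the 8 values lay above 0, up to 1.14, and 4 lay below. The notum sums at -IR were 350 to 456 CPM in POS and 294 to 418 CPM in NEG libraries. At 24 h and 48 h 7 of the 8 values lay below 0, and tup was called lower (-3.09 and -3.16). In POS cells the Iroquois genes ara (-1.55, adjusted p = 0.00766, edgeR) and caup (-1.14, adjusted p = 0.0248, edgeR) fell at 24 h.

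**Figure D4:**
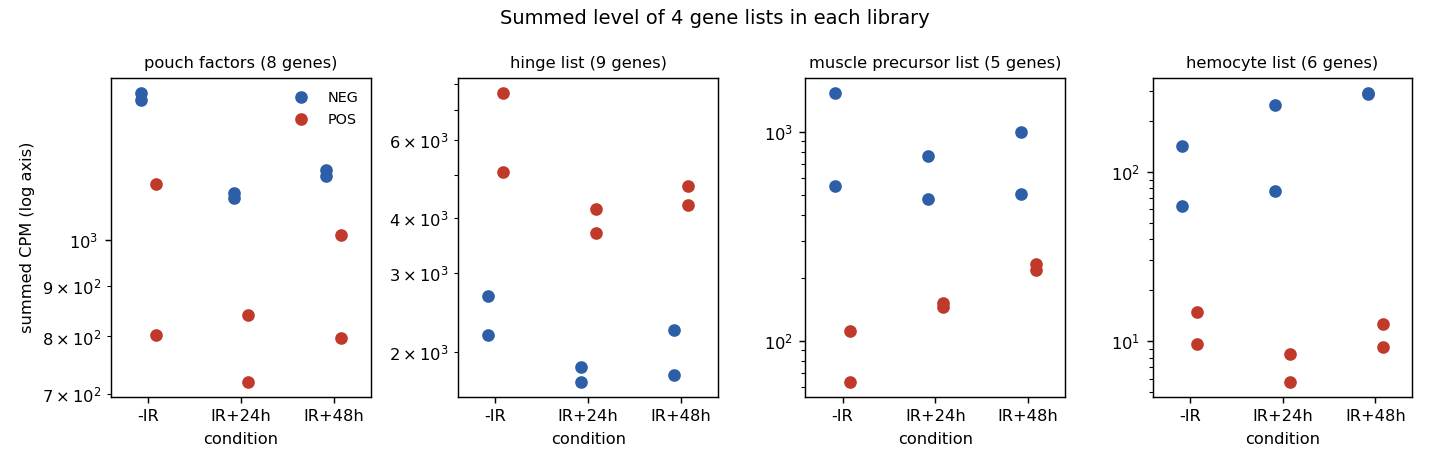
Summed CPM (log axis) of the 8 pouch factors, 9 hinge genes, 5 muscle precursor genes and 6 hemocyte genes in each of the 12 libraries, NEG in blue and POS in red. The pouch factor sums lie between 719 and 1139 CPM in POS cells and between 1102 and 1407 CPM in NEG cells, and the muscle precursor sums of POS cells are 63.3 to 111 CPM at -IR and 218 to 232 CPM at IR+48h.

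Markers of other cell types moved with the groups and stand beside these results. Of the 5 muscle precursor genes, 4 were called lower in POS than in NEG cells at -IR (twi, zfh1, Him and htl). At 24 h 3 were called lower (twi, Him and htl), and at 48 h 1 (htl). Across all genes 2.67%, 0.509% and 0.33% were called in either direction at these times. In POS cells htl, an FGF receptor gene, rose from 2.78 and 4.16 CPM to 16.5 and 21.6 CPM at 24 h and 41.4 and 37.8 CPM at 48 h, with log2 fold changes of 2.44 (adjusted p = 0.00615, edgeR) and 3.49 (adjusted p = 0.00308, edgeR). twi, a mesodermal transcription factor gene, rose at 48 h (2.53, adjusted p = 0.0369, edgeR). Hemocyte genes summed to 5.72 to 14.8 CPM in all POS libraries, with He at 0 counts in both POS IR+48h libraries, and to 62.9 to 293 CPM in NEG libraries. The tracheal pair btl and trh summed to 24.4 to 57.6 CPM in POS and 72.7 to 127 CPM in NEG libraries, and the peripodial pair Ubx and odd summed to 10.8 to 49.5 CPM in all libraries. The part of these cells in the levels of the pouch factors was not tested.

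The 8 factors varied together only in part across the 12 libraries. The highest Pearson correlations of log2 CPM were those of rn with dve (0.90), vg with Dll (0.87), dve with Dll (0.86), vg with dve (0.86) and dve with nab (0.85). nub and pdm2, the adjacent paralogs, had 0.57. ap stood apart, with -0.49 to rn and no value above 0.04 to any of the other 7. These values describe 12 libraries in 6 groups, and libraries of a group share their sort and condition. Against log2 depth the correlation over the same 12 libraries was -0.70 for nub and -0.56 for nab, and between -0.30 and 0.03 for the other 6, and the part of depth in the results was not tested.

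**Figure D5:**
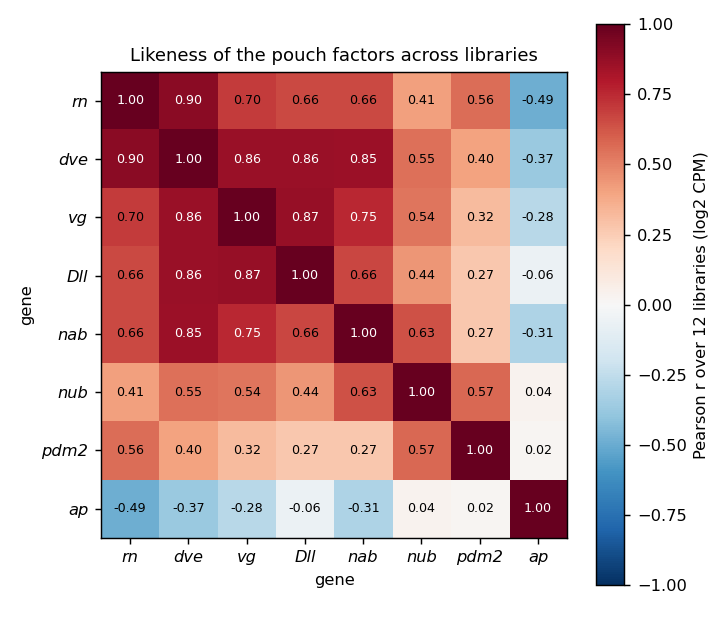
Pearson correlation of log2 CPM over 12 libraries for each pair of the 8 pouch factors, from blue (-1) to red (1). rn, dve, vg, Dll and nab form a block with values from 0.66 to 0.90, and ap has values from -0.49 to 0.04.

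Among all genes tested, those most alike to each factor in the same measure over 12 libraries were as follows. vg was nearest to CG33993 (0.96), CG1544 (0.96) and otk (0.95), and nub to para (0.96), CG32698 (0.86) and CG18467 (0.85). pdm2 had the weakest neighbours, CG42709 (0.83), CG16772 (0.82) and CG8854 (0.81). rn was nearest to Alk (0.94), CG16700 (0.93) and the muscle precursor gene zfh1 (0.92). dve was nearest to trh (0.98), a gene of the tracheal list, then lectin-28C (0.96) and al (0.95). ap was nearest to CG13138 (0.96), ckn (0.95) and Tace (0.94), and Dll to Sox21b (0.95), nonA (0.92) and the Wingless receptor gene fz2 (0.91). nab was nearest to Cyp310a1 (0.95), a gene of the list of further pouch genes, then Obp99a (0.93) and the homeodomain gene Optix (0.92).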

How the data were processed

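The authors trimmed reads with BBDuk, used STAR 2.6.0a for alignment and counting (Ensembl, BDGP6.22), and deposited unnormalized read counts of each gene; the strand of counting is not given in the sources used here. The table held 17753 genes, and 1 of its columns, which matched no sample, was not used. Conditions came from the sample labels. The pouch factors and all other gene lists were chosen with earlier results of these data known. Genes named are the 8 factors in every contrast and list genes past the threshold in the contrast described. For each factor the 3 genes with the highest Pearson correlation are named too. A few further list genes were chosen after their values were seen (sd, N, Ser, fng, wg and He). Chi, Ssdp, Bx, btl, trh, Ubx and odd are named as members of their lists, without regard to the threshold.

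Counts were tested with edgeR 4.0.16 (R 4.3.3) by glmQLFit and glmQLFTest after filterByExpr and TMM, with 6 group means fitted to all 12 libraries, two-sided, with Benjamini-Hochberg adjustment over 10617 genes and a threshold of 0.05. SE is the size of the log2 fold change over the square root of F. A gene at 0 is bounded by 3 counts in a library. Intervals and p-values rest on 2 libraries per group. Alternatives were DESeq2 1.42.0, limma voom 3.58.1, RLE size factors, library size alone, no filter, at least 1 CPM in all 12 libraries, only the groups compared, a replicate block, and each library left out. log2 CPM for correlations used a prior count of 2. Exons of the 8 factors overlapped 0% with those of other genes on either strand in BDGP6.54, which was used for positions and exon lengths only.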

Additional observations from a re-analysis of the deposited data

How the results depend on the processing

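The call of vg at -IR held under every alternative with all 12 libraries in the fit. In POS against NEG cells at -IR, 3 genes were called, and 4 with no filter on low counts (rn was added), 3 with DESeq2, 2 with limma voom, 2 with library size alone, 1 with RLE size factors, 1 with at least 1 CPM in all 12 libraries, 0 with only the groups compared, and 1 to 3 with a library left out. At IR+24h, 0 became 3 with DESeq2, 3 with no filter and 4 with only the groups compared. At IR+48h, 0 became 1 with limma voom, 3 with DESeq2, 3 with no filter and 3 with only the groups compared. In POS cells at IR+24h, 1 (ap) became 0 with only the groups compared and 0 to 2 with a library left out. In POS cells from 24 h to 48 h, 0 became 1 (ap) with only the groups compared, and in NEG cells at IR+24h, 0 became 1 (vg) with no filter. Over all genes at -IR, 284 were called, 699 with DESeq2, 243 with limma voom and 286 with library size alone. RLE size factors gave 234, no filter 751 of 15643, the 1 CPM filter 196 of 7517 and the groups compared 20 of 9521. With no filter, 335 genes were called at IR+24h and 255 at IR+48h. In POS cells the groups compared gave 153 of 9636 at IR+24h and 380 of 9519 from 24 h to 48 h. The cause of the shifts was not tested. The 8 pouch factors had 206 counts or more in each library, and each group had 2 libraries.

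Some log2 fold changes that were not called crossed 0. For pdm2 in POS cells at IR+24h (-0.03) the value was 0.092 with limma voom, 0.012 with library size alone and 0.041 with the replicate block. For NEG cells at IR+24h, pdm2 (0.03) gave -0.0032 with DESeq2, -0.0020 with RLE size factors, -0.023 with at least 1 CPM and -0.0049 with only the groups compared, and rn (0.04) gave -0.015 with at least 1 CPM. For the difference of changes at 24 h, limma voom gave 0.048 for pdm2 and -0.12 for nab, and the replicate block gave 0.00089 for pdm2.

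Leaving out a library in turn gave these ranges for values that crossed 0. POS against NEG: pdm2 -1.14 to 0.38 at -IR and -0.11 to 0.62 at 48 h, and nub -0.66 to 0.095 at 48 h. POS cells at 24 h: rn -0.059 to 0.85, nub -0.27 to 0.25, pdm2 -0.59 to 0.92 and dve -0.61 to 0.33. POS cells at 48 h: pdm2 -0.37 to 1.15, dve -0.34 to 0.61, vg -0.55 to 0.0091, nub -0.71 to 0.039 and nab -0.24 to 0.48. NEG cells at 24 h: nub -0.54 to 0.087, rn -0.12 to 0.21, nab -0.69 to 0.31 and pdm2 -0.13 to 0.18. NEG cells at 48 h: Dll -0.078 to 0.27 and nab -0.71 to 0.29. Difference of changes at 24 h: nub -0.14 to 0.51, nab -0.46 to 0.55, vg -0.015 to 0.61, rn -0.10 to 0.82, pdm2 -0.62 to 0.90, dve -0.45 to 0.51 and Dll -0.60 to 0.21. At 48 h: nub -0.26 to 0.49, nab -0.14 to 0.86, ap -0.21 to 0.10, pdm2 -0.079 to 1.43, rn -0.018 to 0.89 and dve -0.52 to 0.42.

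Replicate numbers were shared between groups, but nothing in the labels says that they pair the samples. Deviations from the group means of POS and NEG libraries with the same number correlated at 0.47, 0.11 and 0.16 at -IR, IR+24h and IR+48h, and those of -IR and IR+24h at -0.22 in POS and -0.14 in NEG cells. With the replicate block 2 genes were called at -IR in place of 3 (nab was lost, log2 fold change -1.30, adjusted p = 0.0626), and the other counts of called pouch factors did not change.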
